A study of Mus musculus with 8 samples.

Results

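The loci of 10 inflammatory cytokine genes (Il1a, Il1b, Il1rn, Il6, Tnf, Il10, Il12a, Il12b, Il18 and Il27) were examined in ATAC-seq data of BMDMs, macrophages grown from mouse bone marrow. ATAC-seq uses a transposase that inserts sequencing adapters into open DNA, so the number of sequenced tags in a peak measures how accessible that stretch of chromatin was. A peak was taken as a member when the authors' annotation assigned it to one of the 10 genes and placed its center within 100 kb of the transcription start site (TSS). This gave 8 of the 9698 peaks of the WT table, at 6 genes, and, in the NCoR f/f table, 25 of 24867 peaks, at all 10 genes. No member peak of the WT table was assigned to Il1rn, Il6, Tnf or Il27.

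The 6 libraries of the WT table came from BMDMs of C57BL/6 mice without an engineered allele, 2 each at vehicle (Veh), 6 h after KLA, and 6 h after KLA in the presence of RGFP966. KLA (Kdo2 lipid A) is the part of bacterial lipopolysaccharide that activates Toll-like receptor 4 (TLR4), and RGFP966 is an inhibitor of histone deacetylase 3 (HDAC3) that was given with the serum starvation preceding KLA. RGFP966 is named in the titles of these libraries, while their treatment entry names KLA only, so the grouping rests on the titles. The 2 libraries of the NCoR f/f table came from BMDMs with loxP-flanked Ncor alleles and no Cre, a wild-type control for macrophage NCoR deletion, at Veh. Whether paired libraries of a condition derive from different mice or cultures is not given in the sources used here, so p-values measure the spread between these samples, which may be technical. RGFP966 without KLA was not analysed here.

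TLR4 signaling activates the transcription factors NFκB, AP-1 and IRF, which act with the lineage factors PU.1 and C/EBP at promoters and enhancers of cytokine genes. The pro-inflammatory genes among the 10 encode IL-1α, IL-1β and IL-18, IL-6 and TNF, and the subunits p35 (Il12a) and p40 (Il12b) of IL-12, which directs T cells toward interferon γ production. Il27 encodes the p28 subunit of IL-27, Il10 an anti-inflammatory cytokine, and Il1rn the secreted antagonist of the IL-1 receptor. Many of these genes are nearly silent in resting macrophages and are switched on by TLR4 ligands.

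Depth was low. The WT libraries had between 116733 and 202523 tags in peaks, or between 1.40% and 2.06% of all their tags, and the NCoR f/f libraries had 372367 and 509741. Values below are therefore tags as counted, or tags per 100000 tags in peaks of the same library, and intervals are exact at 95% and cover counting error only. In these bulk samples, fewer cells with an open site and less opening per cell cannot be told apart. Of 10 macrophage genes fixed as a label check, 7 had a promoter peak in the NCoR f/f table and only Cd68 had one in the WT table, while the promoters of 4 T cell, 4 B cell, 5 neutrophil, 3 fibroblast and 2 epithelial genes had none in either table. Of 2 endothelial genes, Pecam1 had a promoter peak in the NCoR f/f table (3 and 5 tags). Of 3 dendritic cell genes, only Zbtb46 had a promoter peak, in both tables (25 and 27 tags in the NCoR f/f table). In the WT table that peak was lower with RGFP966 + KLA (3 and 5 tags) than at Veh (15 and 7) or with KLA alone (9 and 10). Its part in the results was not tested.

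The center sequences of the 4 peaks that rose in a comparison below, and of the Il1b peak, which did not, are shown so that the changes can be read beside the DNA in which they occurred. Each is 200 bases of the plus strand of mm10 (RefSeq GRCm38.p6), 5′ to 3′, and capitals mark matches to the motifs named below.
Il12b −9.9 kb (chr11:44390061-44390260): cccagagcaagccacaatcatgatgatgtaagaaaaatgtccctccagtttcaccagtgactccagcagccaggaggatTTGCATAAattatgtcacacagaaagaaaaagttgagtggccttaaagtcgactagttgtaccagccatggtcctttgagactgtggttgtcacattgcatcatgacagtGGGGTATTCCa
Il12a −57.9 kb (chr3:68632670-68632869): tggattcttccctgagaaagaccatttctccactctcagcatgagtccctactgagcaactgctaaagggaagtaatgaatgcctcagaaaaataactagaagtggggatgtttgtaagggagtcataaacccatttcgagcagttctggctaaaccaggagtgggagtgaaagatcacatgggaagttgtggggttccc
Il12a +2.2 kb (chr3:68693519-68693718): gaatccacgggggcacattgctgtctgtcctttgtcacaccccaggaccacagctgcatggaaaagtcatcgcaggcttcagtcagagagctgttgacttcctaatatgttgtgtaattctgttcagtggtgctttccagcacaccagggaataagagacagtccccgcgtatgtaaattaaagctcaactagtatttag
Il1a −10.3 kb (chr2:129320134-129320333): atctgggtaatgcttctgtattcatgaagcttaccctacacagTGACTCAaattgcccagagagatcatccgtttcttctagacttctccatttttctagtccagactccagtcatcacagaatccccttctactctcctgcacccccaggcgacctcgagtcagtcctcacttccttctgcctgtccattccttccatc
Il1b −2.3 kb (chr2:129373360-129373559): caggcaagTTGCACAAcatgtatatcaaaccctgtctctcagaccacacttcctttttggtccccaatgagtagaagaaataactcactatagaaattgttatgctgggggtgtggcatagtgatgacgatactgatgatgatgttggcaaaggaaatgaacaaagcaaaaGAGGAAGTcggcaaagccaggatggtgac

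Consensus matches were counted on both strands in these windows for NFκB-p65, IRF, AP-1 (TGANTCA), PU.1 (GAGGAAGT) and C/EBP (TTGCNNAA), without regard to overlaps between them. The Il12b −9.9 kb window held a NFκB-p65 match, GGGGTATTCC, which 4.9% of all 9527 WT peak windows held in some form, and a C/EBP match, TTGCATAA, where 10.9% of all windows held one. A match for AP-1, TGACTCA, was in the Il1a −10.3 kb window, and 18.2% of all windows had one. The Il1b −2.3 kb window held both a PU.1 and a C/EBP match, and the Il12b −22.0 kb window a PU.1 match, against 7.52% of all windows for PU.1. None of the 5 strings occurred in the central 200 bases of the 2 Il12a peaks or of the Il10 peak. IRF matched none of the 8 members and 2.5% of all windows. These matches are descriptions of letters and not of bound factors.

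Most member peaks lay away from promoters. Of the 8 WT members 1 (12.5%) was within 2 kb of a TSS, against 51.0% of all peaks, and of the 25 NCoR f/f members 8 (32.0%) were, against 47.8%. The WT members were intergenic at Il12b, Il1a and the distal Il12a site, in intron 2 of Il12a for the peak at +2.2 kb, and at the promoter of Il18. The Il10 peak, chr1:131025793-131026147, was annotated to the transcription end and began 0.8 kb past the 3′ end of the gene in RefSeq. The Il1b peak, chr2:129373330-129373590, lay 2.2 kb upstream of Il1b inside the antisense noncoding gene Il1bos. The distal Il12a peak lay 6.1 kb from Iqschfp and 57.6 kb from Il12a, so its assignment to Il12a is by the nearest start site only.

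None of the 8 WT members was in the authors' set of reproducible peaks at Veh, whereas 48.9% of all WT peaks were. 4 of the 8 (50.0%) were in the KLA set, against 52.5% of all WT peaks, and 7 (87.5%) in the RGFP966 + KLA set, against 81.1%. All 8 had thus entered the table through a stimulated condition. Values at KLA or RGFP966 + KLA that stood above Veh are partly built into that choice, and each comparison with Veh is read against the 4955 WT peaks outside the Veh set as well as against all peaks. The same holds between the stimulated conditions for peaks in only one of their sets. Il1a −10.3 kb, Il12a +2.2 kb, Il12b −22.0 kb and Il18 were in the RGFP966 + KLA set only, and Il1b was in the KLA set only.

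**Figure D1:**
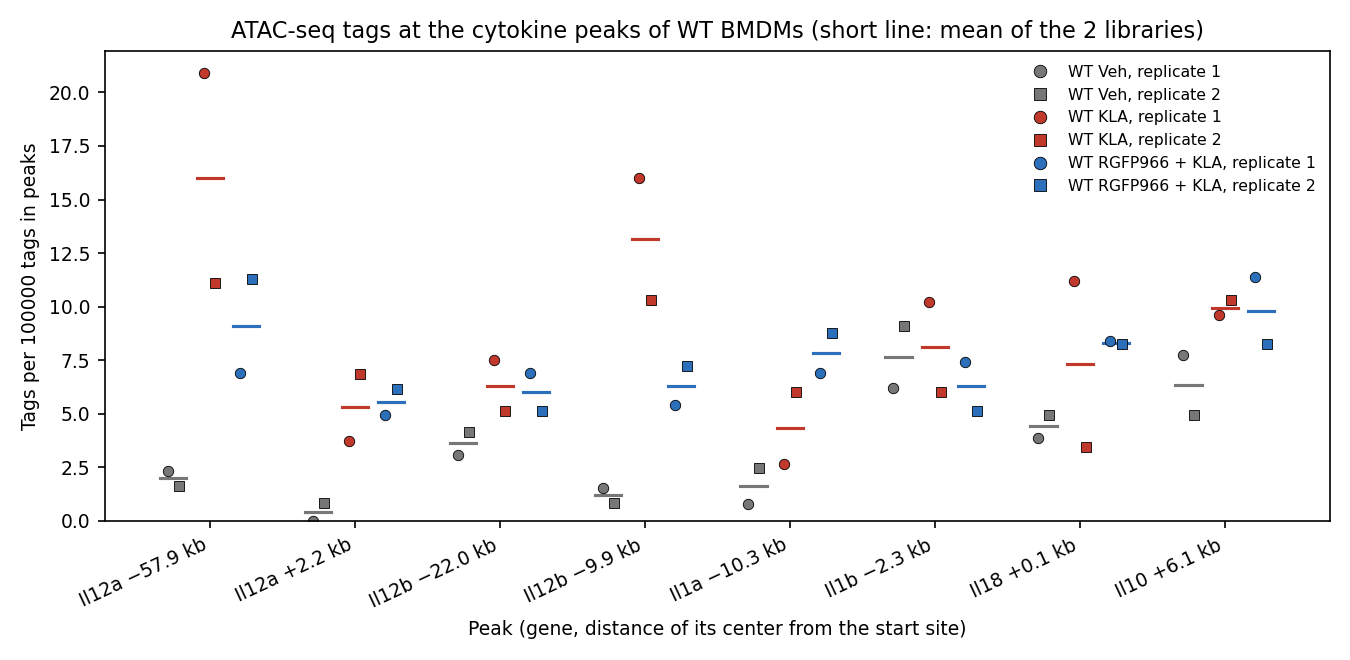
Tags per 100000 tags in peaks at the 8 cytokine peaks of the WT table, by library, with circles for replicate 1, squares for replicate 2 and a short line at the mean of each condition. At Il12a −57.9 kb and Il12b −9.9 kb both KLA libraries stood far above both Veh libraries, and at Il12b −9.9 kb the RGFP966 + KLA libraries lay between the others.

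The comparison of KLA with Veh asks how TLR4 activation alone altered accessibility at the cytokine loci. Among the members, only peaks of the IL-12 genes passed the test. Of the 8 member peaks, 3 passed the test and all 3 were at Il12a or Il12b, compared with 3.67% of all WT peaks gained and 7.14% of the peaks outside the Veh set. A change was called at an adjusted p under 0.05 in edgeR's quasi-likelihood test, fitted across all 9698 peaks with Benjamini-Hochberg adjustment, together with a fold change over 2. The estimate was above 0 at all 8 members, as it was at 72.0% of the peaks outside the Veh set. Their median log2 fold change was 1.07, against 0.38 for the peaks outside the Veh set and 0.02 for all peaks.

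At Il12b −9.9 kb (chr11:44390017-44390306, intergenic, 9.8 kb upstream of the gene) the Veh libraries had 2 and 1 tags and the KLA libraries 30 and 12. The groups did not overlap. The ratio per tag in peaks was 11.5 (3.68 to 58.1), and edgeR gave a log2 fold change of 3.43 with an adjusted p of 0.000207.

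At Il12a −57.9 kb (chr3:68632545-68632996, intergenic) there were 3 and 2 tags at Veh and 39 and 13 with KLA. Both KLA libraries were again far above both Veh libraries, and KLA replicate 1 was the higher of the pair at both of these sites. The ratio was 8.56 (3.44 to 27.5), with a log2 fold change of 3.03 and an adjusted p of 0.000207.

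The third call was the intronic Il12a +2.2 kb peak (chr3:68693512-68693727), with 0 and 1 tags at Veh and 7 and 8 with KLA. On so few tags the ratio of 12.3 had an interval from 1.90 to 520, and edgeR gave 3.40 on the log2 scale with an adjusted p of 0.0128. This call was lost without Veh replicate 1 (adjusted p = 0.171) and without KLA replicate 2 (adjusted p = 0.0574).

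The other 5 member peaks did not pass. At Il1a −10.3 kb (chr2:129320133-129320336, intergenic) the tags were 1 and 3 at Veh and 5 and 7 with KLA, a ratio of 2.47 (0.748 to 10.5) and an adjusted p of 0.313 in edgeR. At the Il18 promoter (chr9:50554650-50554869) they were 5 and 6 at Veh and 21 and 4 with KLA, so that the KLA libraries lay on both sides of the Veh libraries. Without KLA replicate 1 its log2 fold change of 0.88 became −0.35. At the Il10 peak there were 10 and 6 tags at Veh and 18 and 12 with KLA, and the ratio was 1.54 (0.815 to 3.03). The second Il12b peak, at −22.0 kb (chr11:44377937-44378138, intergenic), had 4 and 5 tags at Veh and 14 and 6 with KLA, a ratio of 1.83 (0.796 to 4.56). It stood higher at Veh than the −9.9 kb site, and the intervals of the 2 sites overlap.

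The Il1b −2.3 kb peak, upstream of a gene that TLR4 ligands induce strongly, had 8 and 11 tags at Veh and 19 and 7 with KLA. The ratio was 1.13 (0.600 to 2.15) and the log2 fold change 0.16 (adjusted p = 0.892, edgeR). The counting interval runs from a ratio below 1 to one above 2, so neither direction was resolved at this depth.

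Tags summed over all member peaks of a gene gave the same picture by locus. Il12a, with 2 peaks, rose from 3 and 3 tags to 46 and 21 (log2 fold change 3.15, adjusted p = 3.89e-07, edgeR over 6598 loci), and Il12b, with 2 peaks, from 6 and 6 to 44 and 18 (2.06, adjusted p = 0.000107). These were 2 of the 6 loci with a WT peak, where 2.65% of all loci gained. The sums re-use the tags of the peaks above, all from outside the Veh set, so a rise over Veh is again partly built in. The share among loci made only of such peaks was not computed. The Il12b call was lost without KLA replicate 1 (adjusted p = 0.0729). The other 4 loci have a single peak and repeat the values above.

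Which tool was used decided the peak calls. DESeq2 with its own size factors called no member peak and 0 of all 9698 peaks in KLA against Veh, with 570 peaks at an unadjusted p under 0.05, where edgeR had 1978. Its log2 fold changes at the 3 peaks were 3.45, 3.00 and 3.67, with adjusted p-values of 0.319, 0.233 and 0.735. On summed tags it called the Il12a locus (adjusted p = 0.0262) and not the Il12b locus (adjusted p = 0.130).

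**Figure D2:**
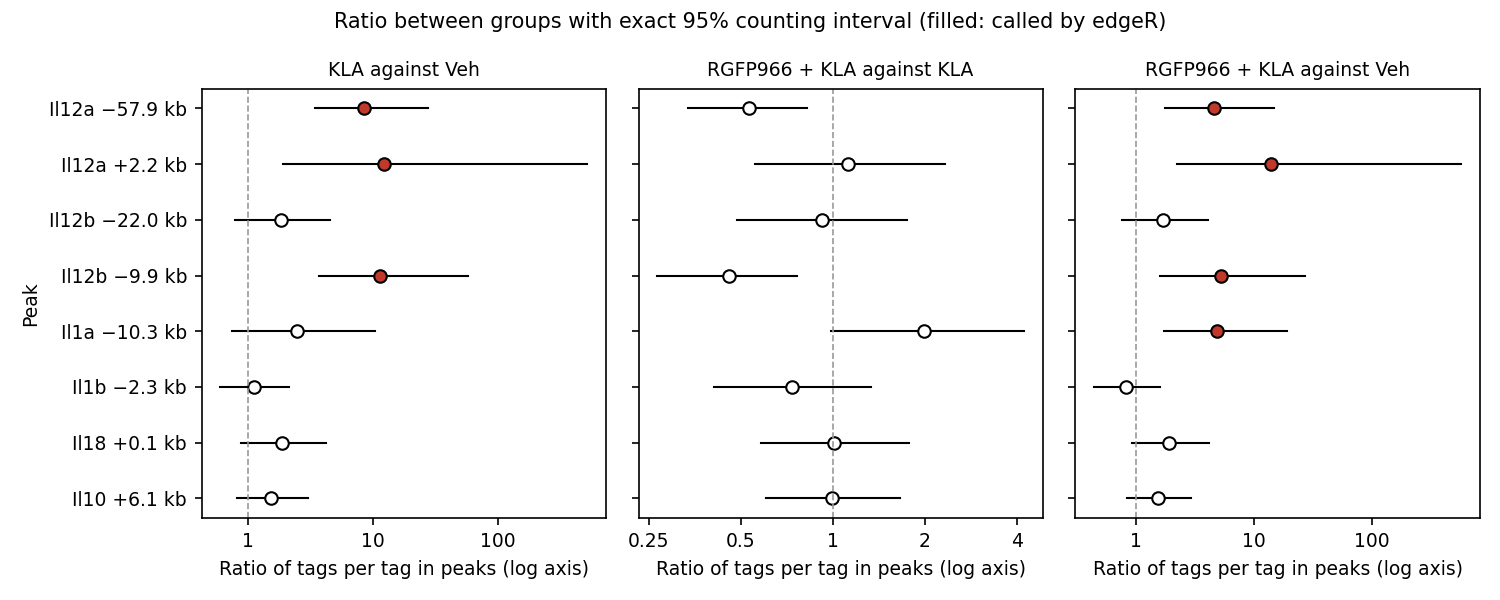
Ratio of tags per tag in peaks between conditions (log axis) at the 8 peaks, with exact 95% counting intervals and filled points where edgeR called a change. The filled points are 3 IL-12 peaks in KLA against Veh, none in RGFP966 + KLA against KLA, and 4 peaks in RGFP966 + KLA against Veh.

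RGFP966 + KLA was compared with KLA alone to see whether inhibiting HDAC3 altered the KLA-induced state. No member peak passed, in edgeR or in DESeq2, where edgeR called 0.289% of all peaks gained and 0.103% lost. That split of 28 gained and 10 lost peaks turned to 24 and 63 with loess scaling, and was 89 and 8 with scaling to all tags. At an unadjusted p under 0.05 edgeR had 3 of the 8 members and 1402 of all peaks. The estimates pointed both ways, with 3 of 8 above 0, against 61.1% of the peaks outside the Veh set. The median of the members was −0.06 on the log2 scale, against 0.16 outside the Veh set and 0.03 for all peaks.

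The lowest ratios of the 8 were at Il12b −9.9 kb and Il12a −57.9 kb, both called in KLA against Veh. Il12b −9.9 kb had 11 and 14 tags with RGFP966 + KLA, or 5.43 and 7.21 per 100000 tags in peaks, against 16 and 10.3 with KLA alone. Both RGFP966 libraries were lower than both KLA libraries. The ratio was 0.456 (0.266 to 0.765) and the log2 fold change −1.11 with an unadjusted p of 0.00304, and after adjustment over all peaks it did not pass in edgeR (adjusted p = 0.125). At Il12a −57.9 kb there were 14 and 22 tags, or 6.91 and 11.3 per 100000, against 20.9 and 11.1 with KLA alone. Here the groups overlapped, the ratio was 0.530 (0.337 to 0.826) and the adjusted p 0.184 in edgeR. The KLA libraries enter both this comparison and the one with Veh.

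The intronic Il12a +2.2 kb peak had 10 and 12 tags with RGFP966 + KLA, or 4.94 and 6.18 per 100000 against 3.74 and 6.85. Its ratio of 1.12 (0.557 to 2.33) has an interval that holds both a loss and a gain, and loess scaling turned its log2 fold change of 0.16 to −0.62. Il1a −10.3 kb had 14 and 17 tags, or 6.91 and 8.75 per 100000, where KLA alone gave 2.67 and 6.00. Both RGFP966 libraries were higher than both KLA libraries, a direction that its entry through the RGFP966 + KLA set alone partly fixes. The ratio was 1.98 (0.988 to 4.23), and the difference did not pass in edgeR (0.96 on the log2 scale, adjusted p = 0.304).

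The remaining sites gave ratios near 1 with wide intervals. They were 0.995 (0.603 to 1.66) at Il10, 1.01 (0.583 to 1.77) at Il18, 0.919 (0.486 to 1.75) at Il12b −22.0 kb and 0.736 (0.408 to 1.33) at Il1b. On summed tags the Il12a locus had a ratio of 0.663 (0.458 to 0.956) and the Il12b locus 0.605 (0.407 to 0.895). In both the RGFP966 libraries were lower than the KLA libraries, at Il12a only narrowly (17.5 against 18.0 per 100000 in replicate 2 of each). Neither locus passed in edgeR (adjusted p = 0.293 and 0.205). Scaling to all tags of each library moved the median of all peaks to 0.20 in this comparison, and the log2 fold change at Il12b −9.9 kb was then −0.95.

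RGFP966 + KLA against Veh shares its Veh libraries with KLA against Veh, so the counts below are not a second, independent set. 4 of the 8 member peaks were higher and passed in edgeR, compared with 7.41% of all peaks gained and 14.4% of the peaks outside the Veh set. The median log2 fold change of the members was 1.52, against 0.51 outside the Veh set. The log2 fold change was 3.55 at Il12a +2.2 kb (adjusted p = 0.00319), 2.32 at Il12b −9.9 kb (adjusted p = 0.0180), 2.23 at Il1a −10.3 kb (adjusted p = 0.00847) and 2.14 at Il12a −57.9 kb (adjusted p = 0.00932). In tags, Il1a −10.3 kb went from 1 and 3 at Veh to 14 and 17, a ratio of 4.88 (1.73 to 19.0). It was called against Veh with RGFP966 + KLA and not with KLA alone, but it was in the table only through the RGFP966 + KLA set, and its difference between those conditions did not pass.

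These calls were less stable than those with KLA alone. Without RGFP966 + KLA replicate 2 no member peak passed, and without Veh replicate 1 only the distal Il12a peak did. With loess scaling Il1a −10.3 kb (adjusted p = 0.0943) and Il12a +2.2 kb (adjusted p = 0.0913) did not pass, and DESeq2 with its own size factors called no member and 0 of all peaks, with 742 at an unadjusted p under 0.05. On summed tags Il12a (2.57, adjusted p = 0.000105), Il1a (2.23, adjusted p = 0.00496) and Il12b (1.35, adjusted p = 0.0228) passed in edgeR, 3 of 6 loci where 5.62% of all loci gained. That share again covers loci with peaks in the Veh set, which these loci lack. The Il12b call was lost with scaling to all tags (adjusted p = 0.113) and without any single one of the Veh and RGFP966 + KLA libraries (adjusted p between 0.0764 and 0.149).

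The other 4 members did not pass against Veh with RGFP966 + KLA. Il18 had 17 and 16 tags, against 5 and 6 at Veh, with a ratio of 1.89 (0.932 to 4.15) and an adjusted p of 0.226 in edgeR. Il10 had 23 and 16 tags and a ratio of 1.54 (0.839 to 2.94), and Il12b −22.0 kb 14 and 10 tags and a ratio of 1.68 (0.754 to 4.11). At these 3 sites both RGFP966 + KLA libraries lay above both Veh libraries per tag in peaks, a direction partly built into how they entered. The estimate was above 0 at 79.7% of the peaks outside the Veh set. How many of those peaks separate by library in this way was not counted. Il1b, with 15 and 10 tags, had a ratio of 0.829 (0.439 to 1.59) and was the only member with an estimate below 0.

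Summed over the 8 peaks, the cytokine sites held 25.6 and 28.9 tags per 100000 at Veh, 81.8 and 59.1 with KLA, and 58.3 and 60.2 with RGFP966 + KLA. The stimulated libraries lay above both Veh libraries, a direction partly built into how all 8 peaks entered the table. KLA replicate 1 stood above the other 3 stimulated libraries. Among the 23 other gene loci with a mean of at least 100 tags, the pattern most like this sum over the 6 libraries was that of Pde4b (Pearson's r = 0.960), which encodes a phosphodiesterase that degrades cyclic AMP. Crlf2 (0.857) and Klf13 (0.573) came next. These correlations describe 6 libraries in 3 conditions and carry no test.

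The 4 member genes without a WT peak each had a peak in the NCoR f/f table, but of these genes only Tnf had one in a Veh set. In the deeper NCoR f/f table at Veh, the Tnf promoter peak at −0.1 kb had 13 and 18 tags and a second Tnf peak at +1.3 kb, in the gene body, had 8 and 21. The promoter peak was in the NCoR f/f Veh set of the authors, and the +1.3 kb peak was only in the Veh set of NCoR-deficient cells. The Il6 peak at +0.1 kb had 7 and 13 tags, the Il1rn peaks at −1.3 kb and −3.7 kb had 9 and 7 and 15 and 9, and the Il27 promoter peak at −0.2 kb had 2 and 4. The Il1rn −3.7 kb peak lies in an intron of the gene, as its distance is to a later start site than that of the −1.3 kb peak. Il27 had further peaks at −12.3 kb with 7 and 10 tags and at −4.2 kb with 2 and 4. The sites of Il6, Il1rn and Il27 were in KLA sets only, so they were counted at Veh but not called there.

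**Figure D3:**
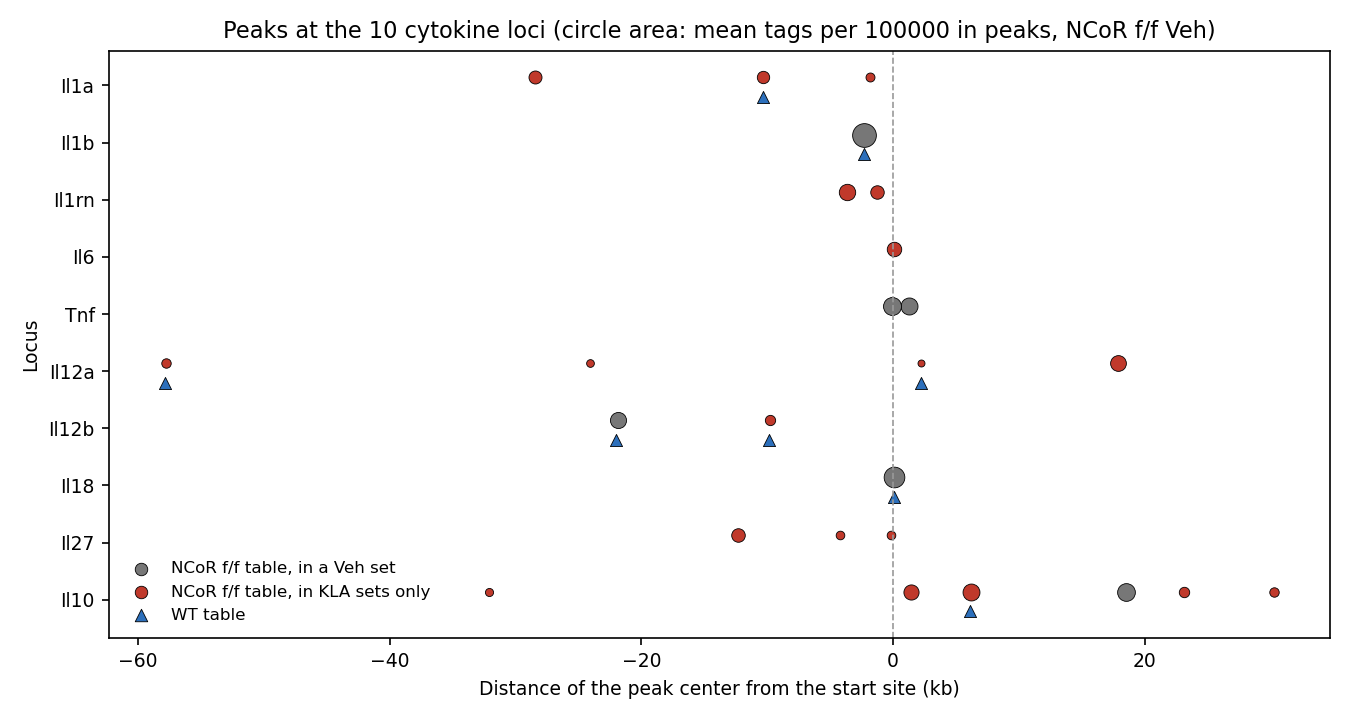
Position of each member peak relative to the TSS of its gene (kb), with circles for the NCoR f/f table (area by the mean tags per 100000 in peaks at Veh, gray if the peak was in a Veh set of NCoR f/f or NCoR-deficient cells and red if in KLA sets only) and triangles for the WT table. The 8 triangles each sit under a circle, and 19 of the 25 circles are red. The Il1rn circle at −3.7 kb lies inside the gene, as its distance is to a later start site.

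Across the 25 NCoR f/f members, 5 (20.0%) were in the set called at Veh in NCoR f/f cells, against 62.2% of all peaks of that table, and 20 (80.0%) were in the KLA set, against 75.1%. Peaks in KLA sets only made up 19 of 25 members (76.0%) and 33.5% of all peaks. These sets come from the authors' merged calls, which include KLA and NCoR-deficient conditions whose tag counts were not analysed here. Under an overlap of at least 1 bp all 8 WT members matched a NCoR f/f member, and 8 of the 25 NCoR f/f members matched a WT member. The shares over all peaks were not computed, so these counts cannot be read as particular to the cytokine sites.

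Where both tables had the site, the NCoR f/f Veh libraries gave low counts at the 4 sites called in a WT comparison with Veh. Tags were 4 and 3 at the distal Il12a site, 2 and 1 at the intronic Il12a site, 4 and 5 at the Il12b −9.8 kb site and 8 and 5 at the Il1a −10.3 kb site. They were higher at Il1b (22 and 34), Il18 (14 and 29) and the Il12b −21.9 kb site (12 and 12), and 7 and 22 at the matching Il10 site. The matches at Il1b, Il18 and Il12b −21.9 kb were in the NCoR f/f Veh set, and none of the 4 sites called in WT cells was. This contrast in Veh counts is thus partly built into how the peaks entered the NCoR f/f table. The tables were counted on different peaks from libraries of different dates, so levels were not tested between them.

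Per length, the loci could be ordered within the NCoR f/f Veh libraries, but the order is partly built into how their peaks entered the table. Every peak of Il27, Il1a, Il12a, Il1rn and Il6 was in KLA sets only. Il1b, Il18, Tnf, Il12b and Il10 each had a peak in the NCoR f/f Veh set. Il1b had 14.5 and 16.4 tags per 100000 in peaks and per kb of peak, Il18 11.5 and 17.5, Tnf 8.65 and 11.7, Il1rn 12.4 and 6.04, Il12b 10.3 and 7.96, and Il6 6.96 and 9.45. Il10 (6.29 and 7.42), Il27 (4.4 and 5.26), Il1a (5.08 and 3.93) and Il12a (5.15 and 3.20) were lower. The values of Il1b, Il18, Tnf, Il1rn, Il12b, Il6 and Il10 each overlapped with those of the next in this order, and so did those of Il27, Il1a and Il12a, while the Il10 values lay above those of Il27. The 6 Il10 peaks together held 39 and 63 tags, spread from −32.1 kb to +30.3 kb, and the site at +18.5 kb (16 and 13 tags) was one of the 5 in the NCoR f/f Veh set.

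**Figure D4:**
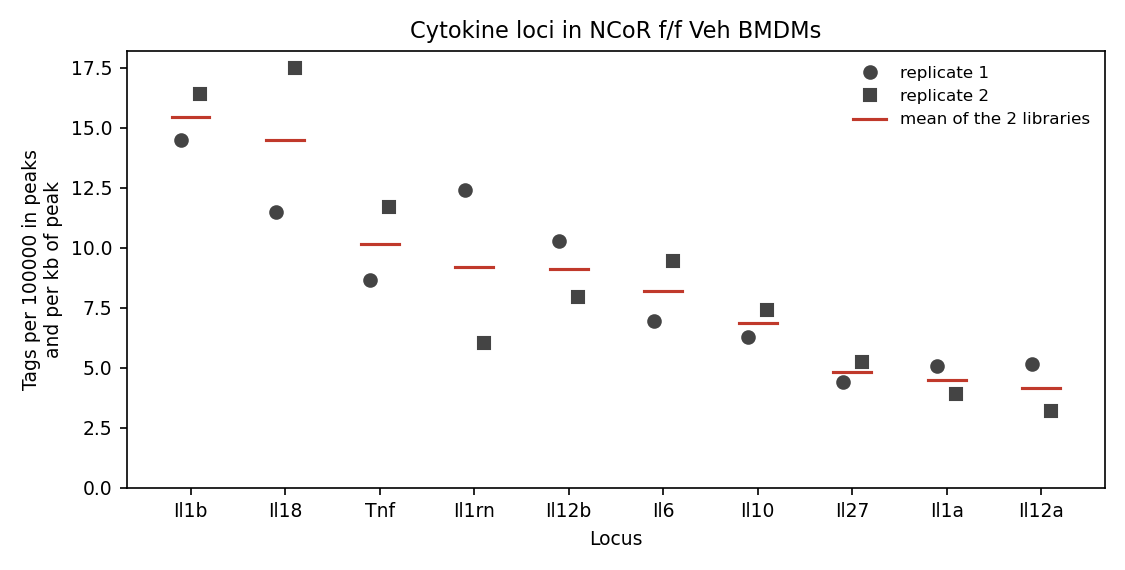
Tags per 100000 tags in peaks and per kb of peak at the 10 loci in NCoR f/f BMDMs at Veh, with circles for replicate 1, squares for replicate 2 and a line at the mean. Il1b and Il18 lie at the high end (11.5 to 17.5) and Il27, Il1a and Il12a at the low end (3.20 to 5.26). All peaks of Il27, Il1a and Il12a were in KLA sets only, and those of Il1b and Il18 were in the NCoR f/f Veh set.

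Near the member genes without a WT peak, the closest WT peaks were assigned to other genes. They were looked up after the values of the members were known and are not members. A peak assigned to Il1f10, 25.0 kb from Il1rn in the IL-1 family cluster, had 2 and 1 tags at Veh, 17 and 11 with KLA, and 5 and 8 with RGFP966 + KLA. It was called higher with KLA (log2 fold change 2.86, adjusted p = 0.00245, edgeR), where 3.67% of all WT peaks and 7.14% of those outside the Veh set were gained. DESeq2 called 0 of the 9698 peaks in that comparison. How this peak entered the table is not given here, so its rise over Veh may be partly built in. With RGFP966 + KLA it was lower than with KLA alone, by a difference that did not pass (log2 fold change −1.47, adjusted p = 0.0820, edgeR). A peak assigned to Lta, 8.3 kb from Tnf, had 2 and 6, 16 and 8, and 10 and 5 tags in the same order and did not pass (adjusted p = 0.141 for KLA against Veh, edgeR). The peak closest to Il27, 91.5 kb away and assigned to Atxn2l, had 20 and 17, 30 and 21, and 19 and 18 tags and did not pass in any comparison (log2 fold change 0.19 in KLA against Veh and −0.85 in RGFP966 + KLA against KLA, adjusted p = 0.807 and 0.172, edgeR). Il6 had no WT peak of any assignment within 100 kb.

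Of 57 other genes of these cytokine pathways (receptors, processing enzymes, related ligands and signal transducers), 19 had a WT locus to test. None was called by edgeR in KLA against Veh or in RGFP966 + KLA against KLA, where 4.17% and 0.637% of all loci were called in either direction. Their median log2 fold changes were 0.38 and −0.06, against 0.00 and 0.02 for all loci. Against Veh, 2 of the 19 were called with RGFP966 + KLA, where 8.28% of all loci were. Csf3, the gene of the granulocyte growth factor G-CSF, was higher (3 and 0 tags at Veh, 4 and 6 with KLA, 16 and 9 with RGFP966 + KLA, log2 fold change 2.32, adjusted p = 0.00847, edgeR). Il6st, the gene of the shared receptor subunit gp130, was lower (33 and 33, 17 and 24, and 22 and 29 tags in the same order, log2 fold change −1.03, adjusted p = 0.00686, edgeR). With KLA alone its log2 fold change was −0.95 (adjusted p = 0.0349, edgeR), which missed the fold threshold only. The other 17 did not pass. Csf3 had few tags at Veh, and how the calls at Csf3 and Il6st fared under the alternatives is not given here. DESeq2 with its own size factors called 4 of all 6598 loci in RGFP966 + KLA against Veh.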

How the data were processed

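Chromatin accessibility was measured by ATAC-seq in 8 libraries of mouse BMDMs, in 2 tables. By the study's methods, the authors aligned reads to mm10 (Bowtie2), found peaks (HOMER), kept those reproducible between the 2 best-correlated libraries of a condition, merged them over conditions, and deposited whole-number tag counts per peak and library, not adjusted for depth and with at most 3 tags per position. Tool versions are not given in the sources used here. The cap limits high counts, and peaks found in any condition enter the table.

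Library size was the total of tags in peaks. The 6 WT libraries shared 1 edgeR 4.0.16 quasi-likelihood model (R 4.3.3) over features with at least 4 tags in a library, for peaks and for tags summed per gene within 100 kb. On simulated counts with 200 peaks raised 4- or 8-fold with KLA, it called 209 peaks, of which 198 were raised ones. The spread between simulated samples was set (dispersion 0.01) and not taken from these libraries. That check therefore cannot decide between the edgeR and DESeq2 calls. Ratios have exact 95% binomial intervals. Members and gene lists were chosen with earlier results of these data known. Named in full were the peak nearest each TSS, every called member peak and the 3 largest changes per comparison. Alternatives were other scalings, DESeq2 1.42.0, other filters and thresholds, a replicate block and each library left out. Summing the RGFP966 + KLA libraries, whose tags differed by less than the sampling noise (chi-square per degree of freedom 0.944, against 1.09 at Veh and at KLA), was added after seeing the data. They carry different index sequences and depths and were kept as 2 samples, and summing them changed no member call. Windows and gene positions came from RefSeq GRCm38.p6, where 30 of 33 member distances were recomputed within 5 bp. Python 3.11.15 was used.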

Additional observations from a re-analysis of the deposited data

How the results depend on the processing

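All called member peaks and loci kept their direction under every alternative run. Under edgeR alternatives, Il12b −9.9 kb and Il12a −57.9 kb stayed called in KLA against Veh in 16 of 16 (adjusted p between 1.39e-05 and 0.0129, and between 2.28e-06 and 0.0392), and so did the Il12a locus in 18 of 18. DESeq2 with either set of size factors called 0 member peaks in KLA against Veh and in RGFP966 + KLA against Veh, where edgeR called 3 and 4, and over all peaks it called 0 or 1 where edgeR called 549 and 1018. On summed tags it called 1 locus (Il12a) in KLA against Veh with either set and, with its own size factors, 0 in RGFP966 + KLA against Veh. With total-tags size factors its adjusted p-values for the loci in that comparison were NA and are not counted. Loess scaling left 2 member peaks called in RGFP966 + KLA against Veh. The cause of these differences was not tested.

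With each library left out in turn, where the lone sample left in a condition was assumed to vary like the others, the count of called peaks ranged from 0 to 4 in RGFP966 + KLA against Veh, and the count of called loci from 1 to 2 in KLA against Veh and from 1 to 3 in RGFP966 + KLA against Veh. The 0 came without RGFP966 + KLA replicate 2, which also left 1 locus. Without Veh replicate 1 there was 1 peak and 1 locus, and without Veh replicate 2 there were 2 peaks. In KLA against Veh, leaving out KLA replicate 1 left 1 locus. The count of all peaks called in RGFP966 + KLA against KLA was 38, and it was 79 with the replicate block, 82 with only the 4 libraries compared, 97 with all tags, 87 with loess, 0 with DESeq2 and 4 with the RGFP966 + KLA libraries summed. It was 106 and 105 without Veh replicate 1 or 2, 2 and 12 without KLA replicate 1 or 2, and 0 and 5 without RGFP966 + KLA replicate 1 or 2. No member peak was called in that comparison under any of them.

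Values that changed sign were not called under any setting. In RGFP966 + KLA against KLA, the Il18 log2 fold change was −0.01 with TMM factors and with loess scaling, Il10 was 0.16 with all tags, 0.01 with loess and 0.02 with the replicate block, Il12b −22.0 kb was 0.05 with all tags, Il12a +2.2 kb was −0.62 with loess, and the Il12a locus was 0.16 with only peaks within 20 kb. Leaving out a library gave ranges in that comparison of −0.43 to 1.26 at Il18, −0.26 to 0.20 at Il10, −0.34 to 0.23 at Il12b −22.0 kb, −0.71 to 0.07 at Il1b and −0.30 to 0.56 at Il12a +2.2 kb. In KLA against Veh the ranges were −0.35 to 1.34 at Il18 and −0.34 to 0.45 at Il1b, and in RGFP966 + KLA against Veh −0.56 to 0.02 at Il1b.

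Differences between the replicates of a condition were almost uncorrelated between conditions (r between 0.0155 and 0.0234). They were close to counting noise, so these correlations cannot decide whether the replicate numbers pair the samples. With the replicate block 3, 0 and 4 member peaks were called in the 3 comparisons, as without it. AP-1 matched 2 members over the whole peak and 3 in 400 bases, against 20.8% and 23% of all peaks. Both other overlap rules gave 8 shared peaks. With few tags per member peak in each WT library, the counting intervals were wide and moderate changes could not be resolved.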
